A study of Drosophila melanogaster with 2 samples.

Results

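Proteasome subunit genes were defined as the protein-coding genes whose symbol begins with Prosalpha, Prosbeta, Rpn or Rpt followed by a digit. There were 48 of them among the 13945 protein-coding genes on the Drosophila melanogaster chromosome arms. Of these, 32 encode the ubiquitous subunits, and 16 are paralogues whose symbol ends in R or T, with or without a further number, called testis-type paralogues here. The name testis-type was taken from the symbol, and expression was not measured. Each paralogue had its parent gene among the 32, and the 16 trace to 12 distinct parents.

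The proteasome degrades proteins tagged with ubiquitin. Its core particle stacks rings of alpha subunits, which gate the entrance, on rings of beta subunits, of which Prosbeta1, Prosbeta2 and Prosbeta5 carry the cutting sites. The regulatory particle consists of a base, with the Rpt ATPases that unfold substrates and the Rpn1, Rpn2, Rpn10 and Rpn13 subunits that receive ubiquitin chains or hold the base together, and a lid, in which Rpn11 removes ubiquitin. The Drosophila genome also holds duplicated copies of many subunit genes, several of which are known to be expressed in the male germ line.

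The measurement was ChIP-seq (sequencing of chromatin fragments recovered by immunoprecipitation) of CG15696, a homeodomain protein, in whole embryos of mixed sex aged 2 to 8 h. Both libraries carried a stable transgene that fuses GFP to the C-terminus of CG15696, came from a single fly line and were precipitated with an anti-GFP antibody. What drives expression of the tagged protein, and in which cells, is not stated in the labels. The age is that of the source name, since the age field holds an impossible number of hours. The samples form 1 group, as biological replicates numbered 1 and 3, each called against the same 1 control alignment, so no condition is compared and no p-value is given. The read depth is unknown. The authors' set thresholded by the irreproducible discovery rate (IDR, which measures whether peaks keep their rank between replicates) held 5354 sites. All 5354 were the strongest by signal in the authors' pooled list of 30000 peaks, so the IDR list is a rank limit on that list. The signal of a peak is the authors' value on an unstated scale, and it ran from 134 to 7767 in the IDR list with a median of 259. It served to order peaks inside each list and to set matched replicate peaks side by side, and rank 1 is the strongest.

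The promoter DNA of single subunit genes is shown here with the position of any CG15696 summit. Prosbeta2 encodes a catalytic beta subunit and shares its promoter with the mitochondrial ribosomal protein gene mRpL39. The 284 bases between the exons of both genes are shown at chr3L:14999667-14999950 on the plus strand, with the capitals marking 2 copies of TATCGATA, the DNA replication-related element (DRE) bound by the factor DREF at many housekeeping promoters. The first copy starts at base 25, close to mRpL39, the other at base 275, close to Prosbeta2, and the CG15696 summit falls on base 114 between them. Rpn11 is the 1 gene of those with a site at its own start that has no other gene's start nearby. Its 151 bases around the summit are shown on the minus strand at chr2L:5059963-5060113, with capitals on a homeodomain core motif, TAATTA, which starts at base 61 beside the summit at base 76. Prosbeta2R1 is a testis-type copy of Prosbeta2 and had no peak in any part of its territory. Its 290 upstream bases at chrX:5808664-5808953, plus strand, hold neither motif. All sequences are those of the RefSeq copy of the Release 6 genome (dm6), written 5' to 3'.
Prosbeta2: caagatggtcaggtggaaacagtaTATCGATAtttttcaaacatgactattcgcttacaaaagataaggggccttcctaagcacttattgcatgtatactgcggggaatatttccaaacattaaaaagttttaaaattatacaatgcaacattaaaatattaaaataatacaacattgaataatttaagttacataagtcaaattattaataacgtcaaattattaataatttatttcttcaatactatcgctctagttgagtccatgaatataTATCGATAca
Rpn11: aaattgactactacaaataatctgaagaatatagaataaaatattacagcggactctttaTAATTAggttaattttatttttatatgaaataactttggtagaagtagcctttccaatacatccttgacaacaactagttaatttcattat
Prosbeta2R1: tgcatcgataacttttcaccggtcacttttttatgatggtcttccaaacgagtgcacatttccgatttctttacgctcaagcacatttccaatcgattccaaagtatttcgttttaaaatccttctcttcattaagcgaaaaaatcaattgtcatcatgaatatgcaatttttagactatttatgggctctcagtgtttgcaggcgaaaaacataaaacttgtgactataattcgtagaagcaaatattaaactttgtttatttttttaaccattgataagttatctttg

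A further pair of promoters shows how compact these intervals are. The 177 bases upstream of Rpn3, a lid subunit gene, at chr2L:19051613-19051789 on the plus strand, reach the divergent gene l(2)37Bb, and the summit falls on base 161. They consist largely of a direct repeat: 72 bases from base 1 recur unchanged from base 79, an offset of 78 bases. How reads that match both copies were handled is not stated. The capitals mark the second copy, which ends at base 150, so the summit falls just past it. Prosalpha4, a subunit of the alpha ring, is separated from the divergent gene kat80 by the 89 bases at chrX:16276181-16276269, plus strand, printed in lower case because they hold neither TATCGATA nor TAATTA. A weak IDR summit falls on base 58.
Rpn3: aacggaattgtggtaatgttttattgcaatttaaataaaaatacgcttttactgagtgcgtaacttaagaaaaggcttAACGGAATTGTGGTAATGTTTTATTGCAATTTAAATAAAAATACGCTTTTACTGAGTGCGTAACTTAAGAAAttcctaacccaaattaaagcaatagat
Prosalpha4: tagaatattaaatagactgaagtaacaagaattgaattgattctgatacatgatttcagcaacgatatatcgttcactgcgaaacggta

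CG15696 sites were found near the ubiquitous subunit genes and scarcely at all near the testis-type copies. An IDR summit lay in the gene body or within 2 kb of it, an interval called the territory here, for 18 of 32 ubiquitous subunit genes (56.2%) and for 1 of 16 testis-type paralogues (6.25%), which together make 19 of 48 (39.6%), against 37.2% of all protein-coding genes. Within 500 bp of one of the gene's own transcription start sites (TSSs), an IDR summit was found at 10 ubiquitous subunit genes (31.2%) and at 0 testis-type genes, against 21.4% of all genes. Counted from the 5'-most TSS alone, it was found at 8 ubiquitous subunit genes (25%) and 0 testis-type genes, against 19.3% of all genes. In the whole pooled list, 28 ubiquitous subunit genes (87.5%) and 1 testis-type gene (6.25%) had a peak at that distance, against 51.3% of all genes. The share over all 48 genes was therefore close to the background, and the ubiquitous and testis-type genes lay on opposite sides of it. These are counts over small sets of genes that are no replicates of each other, and the difference was not tested.

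**Figure D1:**
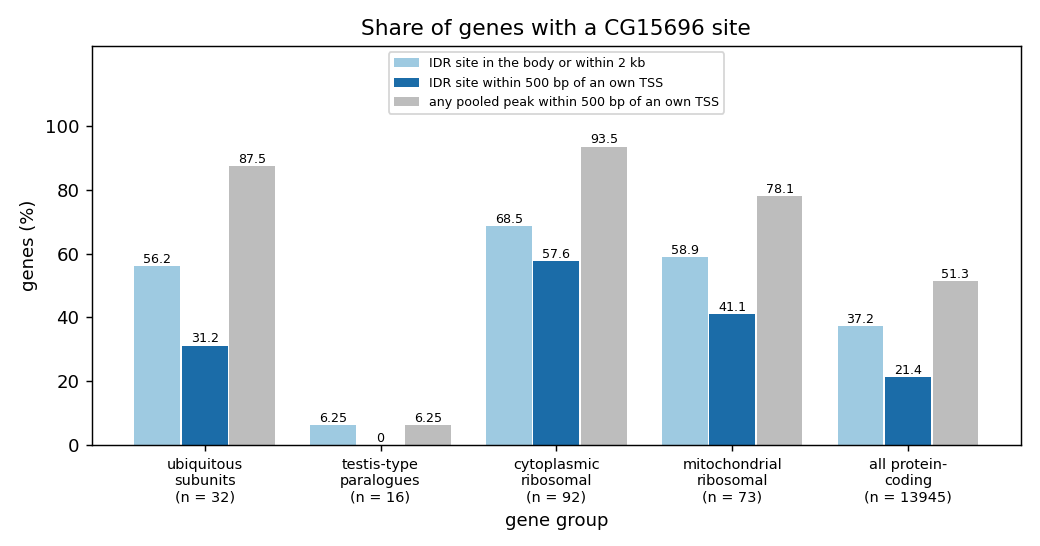
Share of genes (%) with an IDR site in the territory, an IDR site within 500 bp of an own TSS, or any pooled peak within 500 bp of an own TSS, for ubiquitous subunits, testis-type paralogues, ribosomal protein genes and all protein-coding genes. Bars are shares of the number of genes below them, without error bars because there is 1 IDR list. The own-TSS IDR share was 31.2% for ubiquitous subunits, 0% for testis-type paralogues and 21.4% for all genes.

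The lid held more of the own-TSS sites than any other subcomplex. Of its 8 ubiquitous genes under the symbol rule, 5 had an IDR site at their own TSS (62.5%), and 6 had one in their territory. The lid subunit gene Sem1 falls outside that rule and had no IDR site in its territory. The sites of Rpn6 and Rpn8 counted only through internal TSSs. From the 5'-most TSS alone 3 lid genes had one (37.5%), against 19.3% of all genes. In the alpha ring, 2 of 7 genes had an own-TSS IDR site and 4 a territory site. In the beta ring the numbers were 2 and 3 of 7. Among the non-ATPase genes of the base they were 1 and 3 of 4. None of the 6 Rpt ATPase genes had an own-TSS IDR site, and 2 had a territory site (33.3%). Over all protein-coding genes these shares were 21.4% and 37.2%. The ATPases had the lowest share of genes with an own-TSS pooled peak, at 4 of 6 (66.7%), against 51.3% of all genes. Such a peak was present at 6 of 7 genes in each core ring and at all 12 Rpn genes. With so few genes per subcomplex, these counts are a description.

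Rpn6, known in yeast to clamp the regulatory particle to the core, had the strongest own-TSS site (rank 1162, signal 522). The peak ran from 14752270 to 14752518 on 2R, and its summit at 14752389 lay in an Rpn6 intron, 118 bp upstream of its nearest TSS and 132 bp upstream of that of ave. The matched peak had a signal of 168 in replicate 1 and 355 in replicate 3. Rpn6 ranked 1401 and 1043 in those lists, so both replicates placed it in their strongest 5354 peaks.

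Rpn3 and Rpn11 followed with nearly equal signals. The Rpn3 site (rank 1829, signal 361) ran from 19051571 to 19051974 on 2L, with its summit 17 bp upstream of the Rpn3 TSS and 161 bp upstream of l(2)37Bb, just past the second copy of the repeat shown above. It had a signal of 150 in replicate 1 and 213 in replicate 3. The Rpn11 site (rank 1856, signal 358) ran from 5059836 to 5060239 on 2L, and its summit lay farther out, 248 bp upstream. Its signal was 118 in replicate 1 and 244 in replicate 3. Rpn11, the deubiquitinase of the lid, was the 1 gene of the 10 whose site had no other protein-coding TSS within 500 bp.

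Rpn5, a scaffold subunit of the lid, had its own-TSS site (rank 2047, signal 325) inside an intron of Hat1, a histone acetyltransferase gene, from 5789100 to 5789503 on 3R. The summit lay 191 bp upstream of Rpn5 and 82 bp downstream of the Hat1 TSS. It had a signal of 87 in replicate 1 and 236 in replicate 3. Rpn8, the partner of Rpn11, had the weakest lid site (rank 4372, signal 162), from 24402622 to 24403025 on 2R. Its summit lay in an intron of Rpn8 itself, 181 bp upstream of an internal Rpn8 TSS and 144 bp upstream of Slik. Its signal was 53.8 in replicate 1 and 99.3 in replicate 3. In replicate 1 it ranked 6351, beyond the strongest 5354. The lid thus spanned most of the range of own-TSS signals in the family.

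Among the base genes, Rpn13, a ubiquitin receptor, had an own-TSS site (rank 2880, signal 242) from 13960419 to 13960528 on 2R. The summit lay 62 bp upstream of Rpn13 and 209 bp upstream of CtsL1, a cathepsin gene. Its signal was 53 in replicate 1, where it ranked 6492, and 185 in replicate 3, where it ranked 2275. In proportion, though not in absolute signal, this difference was larger than at the own-TSS sites of the lid genes.

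The core ring genes had weaker own-TSS sites than the 4 strongest lid genes. Prosalpha3 (rank 2721, signal 256) had its peak from 20994663 to 20995066 on 2R, with the summit 35 bp upstream and a signal of 75.5 in replicate 1 and 184 in replicate 3. Prosbeta2 (rank 3053, signal 228) had its peak from 14999578 to 14999981 on 3L, with the summit 171 bp upstream of Prosbeta2 and 114 bp upstream of mRpL39. It had a signal of 72.7 in replicate 1 and 156 in replicate 3. Prosbeta1 (rank 3724, signal 190), another catalytic subunit gene, had its peak from 16014638 to 16015041 on 2R, with the summit 53 bp upstream of Prosbeta1 and 68 bp upstream of Rrp42, an exosome subunit gene. It had a signal of 76.1 in replicate 1 and 109 in replicate 3. Each of these values was higher in the list of replicate 3, as was the median over all IDR sites.

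Prosalpha4 was the 1 gene with a pair of own-TSS sites, and the replicates disagreed on both. The stronger (rank 2858, signal 244) ran from 16275886 to 16276102 on X, in an intron of kat80, which encodes a regulatory subunit of the microtubule-severing enzyme katanin, 241 bp upstream of Prosalpha4. It had a signal of 168 in replicate 3 and no replicate 1 peak within 100 bp. The weaker (rank 5146, signal 139), from 16276036 to 16276439, had its summit in the sequence printed above, 32 bp upstream of Prosalpha4 and 58 bp upstream of kat80. It had a signal of 94.6 in replicate 1 and 63.8 in replicate 3, the reverse of the usual order. It was also the own-TSS site closest to the end of the IDR list.

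**Figure D2:**
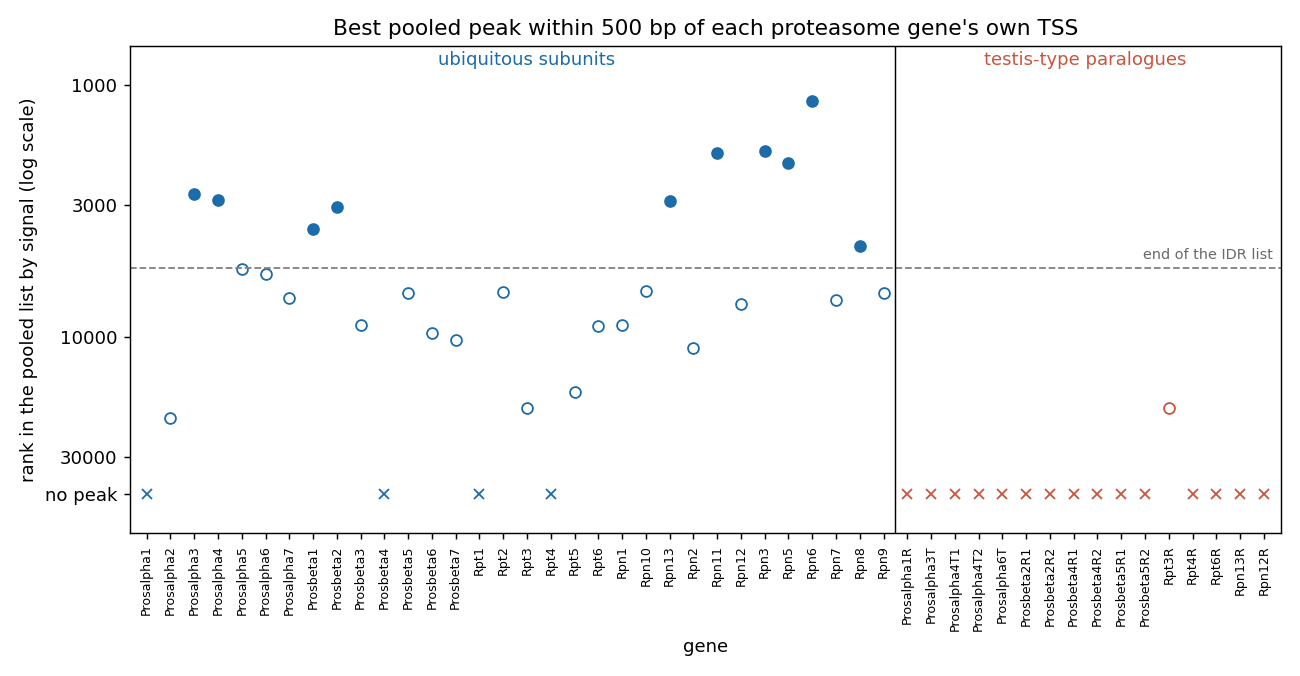
Rank in the pooled list (log scale, strongest at the top) of the best peak within 500 bp of the own TSS of each of the 48 genes. Filled circles are IDR sites, open circles are pooled peaks beyond rank 5354 (dashed line), and crosses are genes with no such peak, which were 4 of 32 ubiquitous genes and 15 of 16 testis-type paralogues.

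The rank limit ran through the middle of the family. Beyond it, 18 ubiquitous subunit genes had an own-TSS pooled peak without an own-TSS IDR site, at ranks from 5397 to 20946 with a median of 8159.5, and 13 of these ranked within 10000. Prosalpha5 fell just outside (rank 5397, signal 133, 52 bp upstream), followed by Prosalpha6 (rank 5621, signal 128). The closest own-TSS site inside was the weaker site of Prosalpha4 (signal 139). Next beyond Prosalpha6 came Rpn10 (rank 6607), Rpt2 (rank 6615), Rpn9 (rank 6702), the catalytic Prosbeta5 (rank 6729), Prosalpha7 (rank 6984), Rpn7 (rank 7135) and Rpn12 (rank 7376). The farthest were Rpt5 (rank 16613), Rpt3 (rank 19140) and Prosalpha2 (rank 20946). Of the 18 peaks, 9 had a match within 100 bp in both replicate lists, 4 in replicate 1 alone, 4 in replicate 3 alone and 1 in neither, so 9 of 18 lacked a match in at least 1 replicate.

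The own-TSS peaks of the ubiquitous genes were frequent but of ordinary strength. Their median rank in the pooled list was 6658.5, against 6717 over all genes with such a peak. Of the 28, 10 reached the IDR list (35.7%), against 41.7% of the 7151 genes with an own-TSS pooled peak. The ubiquitous genes with no own-TSS peak were Prosalpha1, Prosbeta4, Rpt1 and Rpt4. Of these, Rpt1 and Prosbeta4 had no pooled peak in any part of their territory, whereas 3598 of all genes (25.8%) had none.

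The own-TSS peaks lay mostly upstream of the nearest own TSS. All 11 own-TSS IDR sites of the family did so, at 17 to 248 bp. For Rpn6 and Rpn8 that TSS is internal, and the summit lay in an intron of the gene itself. The strongest own-TSS site lay upstream of the nearest own TSS in 10 of 10 genes, against 89.1% of all genes with one. The median distance was 144 bp, against 151 bp for all genes. In the pooled list, 27 of the 28 ubiquitous genes had their best own-TSS peak upstream, against 77.7% of all genes. The exception was Rpt6, whose peak (rank 9095) lay 60 bp downstream.

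**Figure D3:**
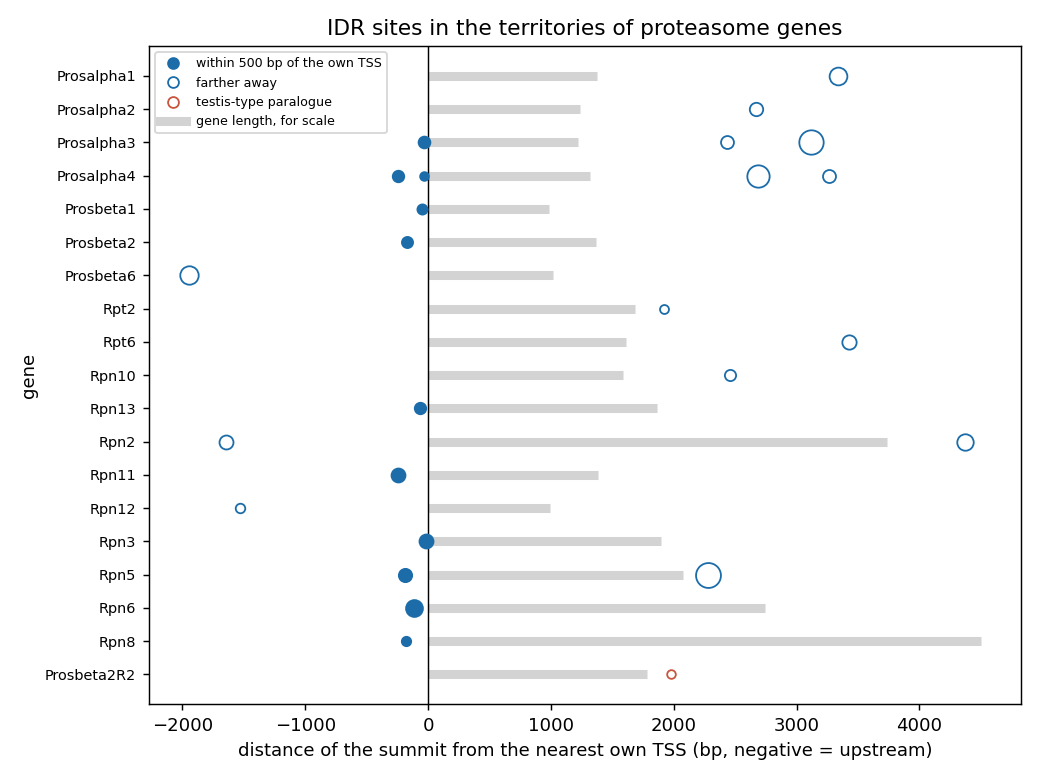
Distance (bp) of each of the 26 IDR summits in a proteasome gene territory from the gene's nearest own TSS, negative upstream, with circle area proportional to the authors' signal. Filled circles are own-TSS sites, which all lay upstream of that TSS, open circles lie farther away, and grey bars show gene length from 0 for scale.

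Most territory sites lay nearer to the TSS of a neighbouring gene than to that of the subunit gene. The 26 sites in the territories formed 26 pairs of gene and site, and in 7 of these the nearest TSS of any protein-coding gene was the subunit gene's own. Of the 11 own-TSS sites, 10 also lay within 500 bp of another gene's TSS, and 4 were nearer to that TSS than to the subunit gene. Of the 15 other sites, 12 lay within 500 bp of another gene's TSS. Of the 18 ubiquitous genes with a territory site, 8 (44.4%) had none at their own TSS, against 42.5% of all genes with a territory site. When a site was counted only at the gene whose TSS was nearest, a choice made after seeing the data, 7 ubiquitous and 0 testis-type genes had one. The counts by neighbour and by nearest TSS were not made over all genes or all IDR sites. They therefore do not show a trait particular to this family.

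The strongest sites in the territories lay at or inside neighbouring genes. The site of rank 319 (signal 1141) in the territory of Rpn5 was 108 bp upstream of Hpf1 and 2278 bp from the Rpn5 TSS. The site of rank 345 (signal 1093) near Prosalpha3 lay in an intron of CG10543, which also held a site of rank 2207 (signal 307). These were 1375 and 694 bp from the nearest TSS, that of CG10543. The sites of rank 474 (signal 917) and 2187 (signal 310) near Prosalpha4 lay in 5' UTR sequence of eas, an ethanolamine kinase gene. They were 374 and 958 bp from the nearest eas TSS. None of these was within 2 kb of the subunit gene's start.

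The other territory sites without an own-TSS partner followed the same arrangement. Prosbeta6 had a site (rank 886, signal 625) between CG4101 and Su(P), 1949 bp upstream of its own TSS. Prosalpha1 had one (rank 993, signal 579) in the 5' UTR of phr, a photolyase gene. Rpn2, the large scaffold of the base, had one beside rdog (rank 1230, signal 498) and one beside eIF2D (rank 1836, signal 360), a pair that flanked the gene on either side. The site near Rpt6 (rank 1736, signal 376) lay between SLIRP1 and anox, 180 bp from each. Prosalpha2 had one (rank 2022, signal 330) between Srlp and Aos1. The site near Rpn10 (rank 3021, signal 231) lay 75 bp upstream of COX8, and that near Rpn12 (rank 4222, signal 168) 50 bp downstream of the TSS of Smn, whose product assembles spliceosomal particles. Among the ubiquitous genes, Rpt2 had the weakest (rank 4843, signal 147), in a coding exon of CG31142. Over all member territories the median signal was 317, and for the own-TSS sites alone it was 244, against 259 for all IDR sites.

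The 1 testis-type gene with a territory site was Prosbeta2R2. That site (rank 5238, signal 138, summit at 5217550 on 3R) lay 94 bp upstream of cno and 1978 bp from the TSS of Prosbeta2R2. It ranked 5255 in replicate 3 and 10944 in replicate 1, and it was the weakest of the 26. Rpt3R had the only own-TSS pooled peak of the class (rank 19243), 493 bp downstream of its TSS and thus just inside the 500 bp limit. Its parent Rpt3 had an own-TSS peak at almost the same rank, 19140. Of the 16 testis-type genes, 11 had no pooled peak in their whole territory. Of the 12 parent genes, 9 had an own-TSS pooled peak, 4 an own-TSS IDR site and 7 a territory IDR site.

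The parent and copy pairs put the contrast on single genes. Prosbeta2 had its IDR site at rank 3053, and neither Prosbeta2R1 nor Prosbeta2R2 had an own-TSS peak. Prosalpha4 had its pair of IDR sites, and neither Prosalpha4T1 nor Prosalpha4T2 had a pooled peak in its territory. Prosalpha3 had an IDR site at rank 2721 and Prosalpha3T none, and Rpn13 had one at rank 2880 and Rpn13R none. For Prosbeta4 the parent was also without a peak, as were Prosbeta4R1 and Prosbeta4R2. Prosalpha1 and Rpt4, like Prosalpha1R and Rpt4R, had no own-TSS peak.

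Gene surroundings differed between the classes in the same direction as the sites. A divergent neighbour whose TSS lies within 500 bp was present for 18 of 32 ubiquitous genes (56.2%), for 2 of 16 testis-type genes (12.5%) and for 26.4% of all genes. The median number of other genes with a TSS in the territory was 2 for ubiquitous, 1 for testis-type and 1 for all genes. No such gene was present at 1 ubiquitous gene and at 7 testis-type genes. Gene length was alike, with a median of 1390 bp (914 to 4500) for ubiquitous and 1282 bp (881 to 1778) for testis-type genes, against 2166 bp for all genes.

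The shares were also counted separately by divergent neighbour. Among genes without one, 13 of 14 ubiquitous genes (92.9%) and 1 of 14 testis-type genes (7.14%) had an own-TSS pooled peak, against 42.1% of all such genes. The own-TSS IDR share was 28.6% for the ubiquitous genes of this kind, 0% for the testis-type genes and 13.5% for all genes. The 4 ubiquitous genes were Prosalpha3, whose divergent neighbour dgt3 starts 519 bp away, Rpn6, Rpn8 and Rpn11. Without the internal TSSs of Rpn6 and Rpn8, 2 of 14 remained (14.3%), against 11.3% of all such genes. Among genes with a divergent neighbour, 6 of 18 ubiquitous genes (33.3%) had an own-TSS IDR site, against 43.4% of all such genes, so there the share was below the background. The ubiquitous genes with a divergent neighbour had an own-TSS pooled peak in 15 of 18 cases (83.3%) and the testis-type genes in 0 of 2, against 76.7% of all such genes. The part of the gene surroundings in these shares was not tested.

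The DRE marked a subset of the ubiquitous promoters and no testis-type promoter. TATCGATA, which reads the same on both strands, occurred from 250 bp upstream to 50 bp downstream of the first TSS in 12 of 32 ubiquitous genes (37.5%) and in 0 of 16 testis-type genes, against 9.36% of all promoters. The 12 were Prosalpha3, Prosalpha5, Prosalpha6, Prosbeta1, Prosbeta2, Prosbeta6, Rpn3, Rpn7, Rpn9, Rpn12, Rpn13 and Rpt5. Some of these elements lay close to the start of a divergent neighbour and can belong to either promoter. Examples were Rpn3 (-194 bp, l(2)37Bb 178 bp away), Prosbeta1 (-118 bp, Rrp42 121 bp away) and Rpt5 (-42 bp, RanBP3 42 bp away). The share of all promoters was counted by the same rule. All 12 (100%) had an own-TSS pooled peak, against 76.9% of the 1305 genes with a DRE promoter. Of the 20 ubiquitous genes without a DRE, 16 had one (80%), against 48.6% of all genes without a DRE. An own-TSS IDR site was present at 5 of the 12 (41.7%), namely Prosalpha3, Prosbeta1, Prosbeta2, Rpn3 and Rpn13, against 34.9% of all genes with a DRE promoter. Among ubiquitous genes without a DRE it was present at 5 of 20 (25%), against 20% of all genes without one. The IDR shares thus lay close to those of other genes with the same promoter class, whereas the pooled shares were higher in both classes. Distances were taken to copies in the same stretch of promoter. The centre of the element was 24 to 342 bp from the summit of the own-TSS pooled peak, with a median of 109 bp. It was nearest at Rpt5 (24 bp), Prosalpha5 (36 bp) and Prosbeta6 (42 bp), whose peaks ranked beyond the IDR list. At Prosbeta2 it was 164 bp away, since the copy near mRpL39, which is closer to the summit, lay outside that stretch. Within 50 bp of the summit, TATCGATA was at 0 of 11 own-TSS IDR sites, against 1.16% of all IDR sites. These shares describe the promoters and were not tested.

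Other short motifs, searched on both strands, lay on either side of the share of all promoters. The core of motif 1, GGTCACAC, was in 5 ubiquitous promoters (15.6%) and in 0 testis-type promoters, against 7.7% of all. The homeodomain core TAATTA was in 3 ubiquitous promoters (9.38%) and 2 testis-type promoters (12.5%), against 20.4% of all. None of those 3 (Prosalpha6, Prosbeta4 and Rpt1) had an own-TSS IDR site, against 31.2% of the 32 ubiquitous genes, and 2 of them had no own-TSS peak. Within 50 bp of the summit, TAATTA was at 2 of 11 own-TSS sites (18.2%), against 10.6% of all IDR sites. The site of Rpn11 was among them, with its TAATTA just beyond the upstream limit of the promoter stretch. The core TATAAA of the TATA box was in 13 ubiquitous promoters (40.6%) and 5 testis-type promoters (31.2%), against 45.8% of all. The repeat GAGAG ran the other way, in 3 ubiquitous promoters (9.38%) and 6 testis-type promoters (37.5%), against 29.7% of all. The antioxidant response element TGACNNNGC is bound by Cnc, the Drosophila counterpart of the Nrf factors that raise subunit transcription in mammals. It was in 5 ubiquitous promoters (15.6%), 1 testis-type promoter (6.25%) and 8.63% of all. None of those 5 ubiquitous genes had an own-TSS IDR site, against 31.2% of the 32. With so few genes, these counts show no relation between motif and site, and none was tested.

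Base composition was similar in both classes of promoter. The median GC content was 33.5% in ubiquitous and 32.7% in testis-type promoters, against 38% in all promoters. The 100-base surroundings of the own-TSS summits had a median of 28.7% GC, against 31.7% for all IDR sites.

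The replicates differed in how strongly they showed the family. Of the 26 territory sites, 25 had a match within 100 bp in both full replicate lists, and 19 (73.1%) were in the strongest 5354 peaks of both, against 72.7% of all IDR sites. Of the 25, 18 (72%) ranked higher in replicate 3 than in replicate 1, against 52.8% of all matched IDR sites. The median log2 ratio of the replicate 3 to the replicate 1 signal was 0.93, against 0.69 for all sites, and for the own-TSS sites it was 1.06. The scales of the lists are not stated, so the ranks are the safer comparison. With the strongest 5354 peaks of replicate 3 alone, 13 ubiquitous genes (40.6%) had an own-TSS site, against 21.9% of all genes. With those of replicate 1 alone, 11 (34.4%) had one, against 20.8%. No testis-type gene had one in either replicate.

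**Figure D4:**
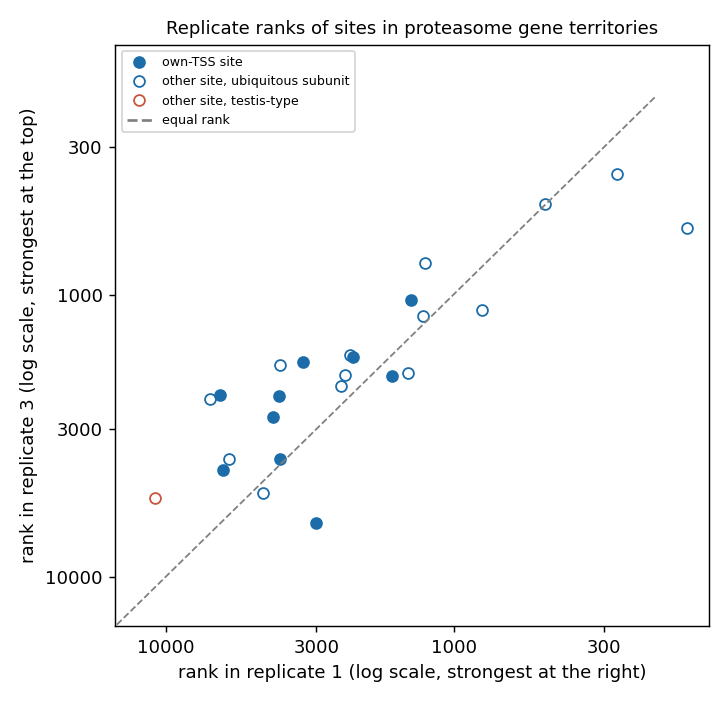
Rank of each IDR site in a proteasome gene territory in replicate 1 (horizontal) and replicate 3 (vertical), log scales with the strongest peaks at the right and top. The 25 sites matched in both lists are shown, the dashed line marks equal rank, and 18 points lie above it.

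The margin over the background at the own TSS changed with the peaks and distances admitted. When only the 2677 strongest IDR sites were kept, 4 ubiquitous genes (12.5%) had an own-TSS site, against 12.1% of all genes, and these 4 were lid genes. In the same sites 11 ubiquitous genes (34.4%) had a territory site, against 23% of all genes. With territories that reached 500 bp beyond the gene, 11 ubiquitous genes (34.4%) had a site, against 28.3% of all genes. With a limit of 200 bp from the TSS, 9 ubiquitous genes (28.1%) had an own-TSS site, against 15% of all genes. No testis-type gene had an own-TSS IDR site in any of these.

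Ribosomal protein genes, taken as further sets of housekeeping genes, had own-TSS IDR sites more often than the ubiquitous proteasome genes. The ribosomal sets were taken by symbol with every paralogue kept, whereas the testis-type paralogues were left out of the proteasome side. An own-TSS IDR site was present at 31.2% of ubiquitous proteasome genes, at 57.6% of 92 cytoplasmic ribosomal protein genes and at 41.1% of 73 mitochondrial ones. A territory IDR site was present at 56.2% of ubiquitous proteasome genes, 68.5% of cytoplasmic and 58.9% of mitochondrial ribosomal protein genes. For pooled own-TSS peaks the shares were 87.5% for ubiquitous proteasome genes, 93.5% for cytoplasmic and 78.1% for mitochondrial ribosomal protein genes. The differences were not tested.

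Other genes of the ubiquitin and proteasome system were taken from a list of 26 symbols, of which 24 matched an annotated gene. A territory site was present for 13 (54.2%) and an own-TSS site for 11 (45.8%), against 37.2% and 21.4% of all genes. The strongest was at Hrd3, a component of the ubiquitin ligase that clears misfolded proteins from the endoplasmic reticulum (rank 116, signal 1797, at its own TSS). Next came Ubi-p63E, a polyubiquitin gene (rank 729, signal 713), sip3, which encodes the ligase partner of Hrd3 (rank 1476, signal 430), and cnc (rank 1572, signal 408). They were followed by Plap (rank 1699, signal 382) and Pomp, the core assembly chaperone (rank 1723, signal 377). The sites of Ubi-p63E, sip3 and cnc lay 2887, 4595 and 2496 bp from their TSSs. Ubi-p63E had a further own-TSS site at rank 2226 (signal 305), and cnc had one at rank 3471. Among the 6 matched genes for proteasome-associated and assembly factors, Pomp and PI31 (rank 4270, signal 166) had an own-TSS IDR site. The deubiquitinases Uch-L5 and Usp14, the activator REG and the lid subunit Sem1 had no IDR site in their territories. The share of this class was 2 of 6 (33.3%) for territory and for own-TSS sites, against 37.2% and 21.4% of all genes.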

How the data were processed

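The deposited peak lists hold the authors' signal value per peak on dm6 coordinates, for replicate 1, replicate 3, both pooled, and an IDR-thresholded set, per the labels and the notes with the files. Neither a peak caller, an IDR threshold nor a read depth is named in the labels. Members, gene lists and motifs were chosen with earlier results of these data known. Summits were set against Ensembl release 115 protein-coding genes. A territory site is an IDR summit in the body or within 2 kb, and an own-TSS site one within 500 bp of any annotated own TSS. Replicate peaks were matched within 100 bp. Named genes are members with a territory site, members without one by subcomplex, neighbours whose TSS lies within 500 bp of a member's strongest site, and the 6 best-ranked genes of the ubiquitin list. Other neighbours, the rank-ordered genes beyond the IDR list, the parent and copy pairs and the proteasome-associated genes were chosen after their values were seen. Motifs were exact matches on both strands. Counting used Python 3.11.15 with NumPy 2.4.6, plots matplotlib 3.10.9, and the counting was tested on simulated peaks. No statistical test was run. Alternatives are given in the closing section.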

Additional observations from a re-analysis of the deposited data

How the results depend on the processing

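Of 54 alternative values for the counts and the distance, 33 stayed within 1.5 times the count, or within the replicate spread of 251 bp for the distance. Leaving out a replicate gave 18 to 21 proteasome genes with a territory site, 17 to 20 ubiquitous, 1 to 1 testis-type, 11 to 13 ubiquitous and 0 to 0 testis-type with an own-TSS site, 10 to 14 ubiquitin-system genes, and a median distance of each gene's strongest site of 1563 to 1918 bp, against 1949 bp. With the 2677 strongest IDR sites the counts fell to 11 proteasome genes, 11 ubiquitous, 0 testis-type, 4 ubiquitous own-TSS and 6 ubiquitin-system genes, with a median distance of 2672 bp and a median signal of 376. In the full pooled list they were 35, 30, 5, 28 and 24, with 1 testis-type own-TSS gene and 493 bp. With a 500 bp margin, 12 proteasome genes and 11 ubiquitous genes had a site, and with 5 kb 2 testis-type genes did. Counting symbols ending in R or T without a number left 0 testis-type genes with a territory site. Assigning sites to the nearest TSS, chosen after seeing the data, left 7 proteasome genes, all 7 ubiquitous, and 0 testis-type. From the 5'-most TSS alone 8 ubiquitous genes had an own-TSS site, with Rpn6 and Rpn8 lost. The symbol rule and the nearest-TSS rule use the same sites, and the other settings change which sites are admitted. Depth is unknown, so a gene without a site had none detectable in these lists.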
